A study of Mus musculus with 4 samples.

Results

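Bone morphogenetic proteins (BMPs), transforming growth factors beta (TGF-beta), growth differentiation factors (GDFs) and activins are related secreted signals, and their mouse genes can be collected by symbol. The genes described here are those whose symbol starts with Bmp, Tgfb, Smad, Acvr, Gdf or Inhb and that had a value in every sample: 53 of 19388 genes. One further symbol, Bmp10, was listed without values. By role, the 53 genes were 26 ligands, 13 receptors, 8 Smads and 6 others, which carry one of the prefixes but are none of these (Bmp1, Bmp2k, Bmper, Tgfb1i1, Tgfbi and Tgfbrap1).

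The samples were bulk hippocampus from C57BL/6 mice, which the series title calls middle-aged. The mice had received PBS (2 samples, numbered 1 and 2) or sodium L-ascorbate (2 samples, numbered 1 and 2), with a treatment lasting 30 days. Sex and exact age are not given in the sources used here, and no engineered allele is named. The labels do not say whether each sample is a separate animal, so the p-values below measure only the spread between these samples, which may be technical.

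In this pathway a ligand dimer brings together type I and type II receptor kinases, and the type I kinase phosphorylates receptor-regulated Smads, which join Smad4 and enter the nucleus. BMP receptors act mainly through Smad1, Smad5 and Smad9, and TGF-beta and activin receptors mainly through Smad2 and Smad3, while Smad6 and Smad7 inhibit the pathway. In brain, BMP signals are known for restraining neural stem cell division, activin for its induction by neuronal activity, and TGF-beta for effects on microglia and the vasculature.

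Promoter sequences are shown for 4 members whose PBS values all lay above their ascorbate values, chosen after their values were seen: the ligands Bmp4, Bmp5 and Bmp6, and Smad6, a feedback inhibitor. Each is 250 bases before and 30 bases after the RefSeq start site on GRCm38.p6, read 5′ to 3′ on the strand of the gene. Bmp4 is chr14:46390640-46390919 (minus strand), Bmp5 is chr9:75775115-75775394 (plus), Bmp6 is chr13:38345466-38345745 (plus) and Smad6 is chr9:64022030-64022309 (minus). Capitals mark the palindrome GTCTAGAC, a sequence bound by Smad proteins in test systems, or its short form CAGAC on either strand (GTCTG on the other). Neither form contains the other.
Bmp4: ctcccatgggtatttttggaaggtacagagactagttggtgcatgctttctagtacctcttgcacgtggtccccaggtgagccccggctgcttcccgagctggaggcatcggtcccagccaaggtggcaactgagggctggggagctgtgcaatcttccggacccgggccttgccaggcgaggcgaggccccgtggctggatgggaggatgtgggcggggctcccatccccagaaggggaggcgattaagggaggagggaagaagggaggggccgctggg
Bmp5: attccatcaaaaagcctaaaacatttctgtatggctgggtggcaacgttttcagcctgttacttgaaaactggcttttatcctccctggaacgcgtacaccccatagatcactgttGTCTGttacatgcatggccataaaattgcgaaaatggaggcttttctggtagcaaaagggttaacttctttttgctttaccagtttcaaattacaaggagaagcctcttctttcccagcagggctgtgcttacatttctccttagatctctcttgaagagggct
Bmp6: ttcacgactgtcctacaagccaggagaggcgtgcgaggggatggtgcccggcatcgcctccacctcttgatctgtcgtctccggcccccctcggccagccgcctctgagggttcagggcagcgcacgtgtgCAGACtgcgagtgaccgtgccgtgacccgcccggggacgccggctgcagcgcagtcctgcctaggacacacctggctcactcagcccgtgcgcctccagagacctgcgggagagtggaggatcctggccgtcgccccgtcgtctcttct
Smad6: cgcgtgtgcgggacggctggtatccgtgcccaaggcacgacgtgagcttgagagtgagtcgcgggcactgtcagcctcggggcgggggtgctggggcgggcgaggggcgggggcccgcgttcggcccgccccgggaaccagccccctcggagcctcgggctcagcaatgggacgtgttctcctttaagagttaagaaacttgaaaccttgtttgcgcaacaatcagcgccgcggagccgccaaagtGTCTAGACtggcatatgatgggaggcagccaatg

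The Smad6 window held the palindrome, with its first base at position -4 from the start site. Of all 32851 RefSeq promoter windows, 63 held it (0.192%), and of the 47 windows found for 38 members, this was the only 1. The short form was present in Bmp5 (first base at -134) and Bmp6 (first base at -119) and in neither of the others. It is frequent: 46.8% of all windows and 21 of the 47 member windows contained it. The Bmp5 window had 42.9% G and C, against 64.3% for Bmp4, 65.4% for Smad6 and 68.6% for Bmp6. A match of letters is a description and not a measured binding site.

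Levels are in FPKM (fragments scaled to transcript length and to library size), a per-length scale on which genes can be compared. Receptors were the most uniformly detected role: 12 of 13 reached 1 FPKM in every sample, with a median of 7.36 FPKM over receptors. Of the 8 Smads, 7 reached 1 FPKM in every sample (median 6.07), as did 5 of the 6 others (median 3.32). Among ligands only 7 of 26 did, and the median ligand stood at 0.759 FPKM. The summed ligand level was 67.1 and 77.4 FPKM with PBS against 50.6 and 54.1 with ascorbate, so both ascorbate sums were lower. This sum is weighted to the abundant ligands and includes Gdf1, whose value is limited as described below. Of the 11 ligands averaging at least 1 FPKM, 3 (Bmp4, Bmp6 and Bmp7) were lower in both ascorbate samples, against 14.4% of all such genes. The receptor sums (125 and 139 with PBS, 111 and 132 with ascorbate) and the Smad sums (52.6 and 54.9, then 56.2 and 53.7) overlapped between the groups.

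The most abundant ligand was Gdf1, at 17.3 and 23.3 FPKM with PBS and 15.9 and 24.1 with ascorbate. Its annotated exons lie entirely within those of Cers1 on the same strand, so its value cannot be separated from that gene. Tgfb2 (mean 8.36 FPKM) and Bmp6 (mean 6.54) followed. The most abundant receptors were Bmpr2, the type II BMP receptor (22.9 and 25.3 FPKM with PBS, 18.4 and 23.6 with ascorbate), Acvr1b, a type I activin receptor (17.2 and 22.7, then 20.7 and 25.6), and Bmpr1a, a type I BMP receptor (22.4 and 18.6, then 16.9 and 15.9). Bmpr2 and Acvr1b overlapped between the groups, and Bmpr1a did not. Among Smads, Smad3 stood at a mean of 12.4 FPKM and Smad4, the shared partner, at 11.4. Bmp1, a procollagen C-proteinase that also cleaves the BMP antagonist chordin, led the others at a mean of 24.4 FPKM.

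**Figure D1:**
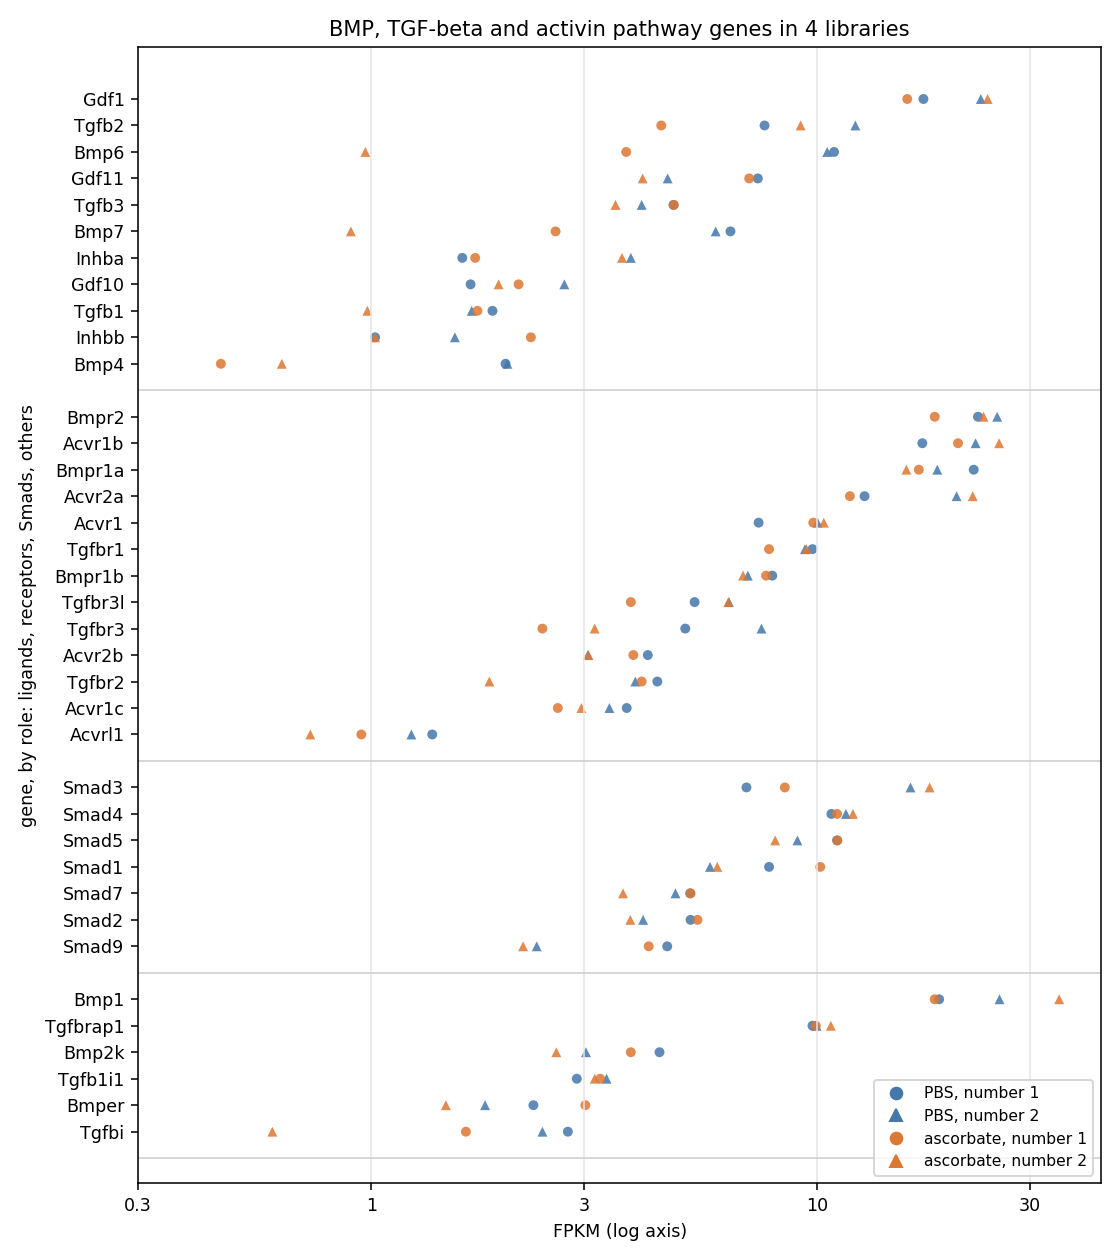
FPKM of the 37 tested members in each of the 4 libraries, on a logarithmic axis, with PBS and ascorbate in different colours and the replicate number as the marker. Bmp4, Bmp6 and Bmp7 have both ascorbate values below both PBS values, whereas Smad3, Acvr2a and Inhba separate by number.

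The libraries differed in the markers of other cell types, and these values touch the results below. A list of 14 choroid plexus genes summed to 9688 and 8949 FPKM with PBS but to 225 and 47.7 with ascorbate. All 14 were lower in both ascorbate samples, and in ascorbate sample 2, 10 were under 1 FPKM and 1, Otx2, was listed at 0. Ttr, the transthyretin gene that choroid plexus epithelium transcribes abundantly, stood at 8152 and 7257 FPKM with PBS and at 88.2 and 1.03 with ascorbate. Of 18 meningeal fibroblast genes, the 14 tested summed to 199 and 229 FPKM with PBS and 48.1 and 39.0 with ascorbate, and all 14 were lower in both ascorbate samples. Mural cell genes (5 tested) summed to 71.1 and 85.3, then 35.7 and 37.4, and endothelial genes (6 tested) to 40.7 and 40.2, then 24.6 and 30.6. Of these, 3 mural and 4 endothelial genes were lower in both ascorbate samples, against 14.4% of all genes tested. Among them, Tagln and Tek (ascorbate means 0.935 and 0.86 FPKM) reached the tested mean of 1 FPKM through the PBS samples. The mural gene Kcnj8, not tested, was higher with ascorbate, at 0.82 and 0.81, then 1.00 and 1.08 FPKM. Myh11 (mural) and Cdh5 (endothelial), also not tested, were lower in both ascorbate samples. Much of the mural sum was Vtn, at 48.2 and 44.0, then 21.3 and 19.5 FPKM. The mural genes Pdgfrb and Rgs5 overlapped between the groups, as did the endothelial genes Flt1 and Pecam1. Microglial sums ranged from 126 to 140 FPKM over all 4 samples and astrocyte sums from 1037 to 1129, and neither separated the groups.

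By replicate number, 9 hippocampal neuron genes summed to 92.7 and 121 FPKM in the samples numbered 1 and 235 and 260 in those numbered 2. All 9 were higher in both samples numbered 2. A list of 10 thalamic neuron genes summed to 402 and 493 in number 1 and 54.8 and 44.0 in number 2, and 6 oligodendrocyte genes to 3618 and 3528, then 1924 and 1563. All genes of both lists were lower in both samples numbered 2. So were all 6 ependymal genes, which summed to 84.1 and 91.5 FPKM in number 1 and to 41.1 (PBS) and 8.23 (ascorbate) in number 2, with 4 of them under 1 FPKM in ascorbate sample 2. Much of the hippocampal sum was Neurod6, at 26.9 and 32.8, then 92.4 and 107 FPKM. Of 7 neocortical neuron genes, 3 were higher and 4 lower in both samples numbered 2. Among them, Tbr1 was at 2.32 and 3.84, then 10.1 and 12.6 FPKM, and Foxp2 at 5.62 and 5.21, then 0.32 in each. Genes of the hippocampal list were therefore present in every library, at levels that differed by number, and genes of the neocortical list differed by number as well. Whether the genes of a list are limited to that region was not tested. Whether hippocampal content itself differed by number was not tested. In bulk tissue, fewer cells of a type and less RNA per cell cannot be told apart.

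Comparison of ascorbate with PBS: 3 BMP ligands, Bmp4, Bmp6 and Bmp7, and the co-receptor Tgfbr3 had the largest differences relative to their error, all lower with ascorbate. None of the 37 members tested passed an adjusted p of 0.05, and neither did any of the 13372 genes tested (0%; limma on log2(FPKM + 1), smallest adjusted p 0.0899). At an unadjusted p under 0.05 stood 4 members, namely these, against 377 of all genes tested (2.82%), 364 of them lower (2.72%). With 2 samples a group, the smallest two-sided exact permutation p for a single gene is 0.333. The values below are therefore levels and differences that did not pass this test, whose error includes the differences by number. A fit that adds the number as a factor is described in the closing section.

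Bmp6, a ligand also known from the liver as a regulator of iron balance, stood at 10.9 and 10.5 FPKM with PBS and at 3.73 and 0.97 with ascorbate. The means were 10.7 ± 0.269 and 2.35 ± 1.95 FPKM (SD, n = 2 each), a 4.56-fold difference that did not pass the test (log2 difference -1.94, SE 0.453, adjusted p = 0.866 by limma). Without ascorbate sample 1 the ratio was 11.1-fold and without ascorbate sample 2 it was 2.87-fold. The gene lies at chr13:38345716-38500314 (GRCm38.p6), and its exons share 224 bases with Txndc5 on the opposite strand.

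Bmp7 (chr2:172868012-172940321), a close relative of Bmp6, followed the same order of samples. It stood at 6.39 and 5.92 FPKM with PBS and 2.59 and 0.90 with ascorbate (log2 difference -1.45, SE 0.350, adjusted p = 0.920 by limma). The ratio of means was 3.53, and 6.84 without ascorbate sample 1 and 2.38 without ascorbate sample 2. Bmp5, another relative of Bmp6, was below the filter of a 1 FPKM mean. Its values were 1.21 and 0.91 FPKM with PBS and 0.38 and 0.30 with ascorbate, again without overlap. A strand-specific count is not stated in the sources used here, and 46.7% of the exon bases of Bmp5 are shared with an antisense gene.

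Bmp4 (chr14:46383525-46390669), a ligand closely related to Bmp2, stood at 2.00 and 2.02 FPKM with PBS and 0.46 and 0.63 with ascorbate. The ratio of means was 3.69 (log2 difference -0.96, SE 0.202, adjusted p = 0.716 by limma), with 3.19 when ascorbate sample 1 was left out and 4.37 when sample 2 was. Its ascorbate mean, 0.545 FPKM, was under the filter, so it entered the test through the PBS samples. Bmp2 itself overlapped between the groups at 0.87 and 0.67, then 1.31 and 0.24 FPKM.

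The remaining tested ligands did not separate in this direction. Tgfb2, one of the 3 TGF-beta ligands, stood at 7.62 and 12.2 FPKM with PBS and 4.47 and 9.18 with ascorbate, which overlap. Tgfb1 (1.87 and 1.68, then 1.73 and 0.98) and Tgfb3 (4.76 and 4.04, then 4.77 and 3.53) overlapped as well. Inhba, which encodes the subunit of activin A, was at 1.60 and 3.82 FPKM with PBS and 1.71 and 3.65 with ascorbate. Inhbb, the activin B subunit gene, was at 1.02 and 1.54, then 2.28 and 1.02. In these ligands the spread within a group was as large as the difference between groups or larger.

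The 15 ligands under the filter had means below 1 FPKM, and Gdf2, which encodes the circulating ligand BMP9, was listed at 0 in every sample. Gdf15, a stress-induced ligand that acts on hindbrain neurons, stood at 0.28 and 0.26 FPKM with PBS and 0.04 in each ascorbate sample. Together with Smad6, 16 members were not tested. Of these, 6 were lower in both ascorbate samples (Bmp5, Gdf3, Gdf7, Gdf15, Inhbc and Smad6) and 1 was higher (Bmp8a, at most 0.05 FPKM), against 14.6% and 7.67% of all 19388 genes. At such levels a few fragments decide a value.

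Of the receptors, 4 of 13 were lower in both ascorbate samples, against 14.4% of all genes tested. Tgfbr3 (chr5:107106567-107289629) encodes betaglycan, a co-receptor that presents TGF-beta2 and inhibin. It stood at 5.06 and 7.50 FPKM with PBS and 2.42 and 3.17 with ascorbate (log2 difference -0.93, SE 0.242, adjusted p = 0.9998 by limma). The ratio of means was 2.25, and within the numbers the log2 differences were -0.83 (number 1) and -1.03 (number 2).

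The other 3 were closer to the PBS level. Bmpr1a had a ratio of means of 1.25. Acvr1c, a type I receptor for activin B and nodal, was at 3.74 and 3.42 FPKM with PBS and 2.62 and 2.96 with ascorbate (ratio 1.28). Acvrl1, the endothelial type I receptor for BMP9 and BMP10, was at 1.37 and 1.23, then 0.95 and 0.73 (ratio 1.55), and it too passed the filter through the PBS samples. The 2 signalling TGF-beta receptors overlapped: Tgfbr1 was at 9.76 and 9.39, then 7.80 and 9.46 FPKM, and Tgfbr2 at 4.38 and 3.91, then 4.04 and 1.84.

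None of the 7 tested Smads separated the treatments, against 14.4% of all genes tested lower and 8.65% higher. Their log2 differences lay between -0.16 (Smad7) and 0.20 (Smad1). Smad4 was at 10.8 and 11.6 FPKM with PBS and 11.1 and 12.03 with ascorbate, a ratio of means of 1.03 with ascorbate above PBS. Smad6, below the filter, was at 1.05 and 1.14 FPKM with PBS and 0.59 and 0.14 with ascorbate, a PBS to ascorbate ratio of 3.00. Leaving out ascorbate sample 1 gave 7.82, and leaving out sample 2 gave 1.86. Smad7, the other inhibitory Smad, was at 5.19 and 4.81, then 5.20 and 3.67, which overlap.

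Among the 6 others, Tgfbi, an extracellular matrix gene named for its induction by TGF-beta, was at 2.76 and 2.42 FPKM with PBS and 1.63 and 0.60 with ascorbate (log2 difference -0.81, unadjusted p = 0.0536 by limma). The ratio was 2.32, and 4.32 without ascorbate sample 1 and 1.59 without ascorbate sample 2. Bmp1, Bmp2k, Bmper, Tgfb1i1 and Tgfbrap1 overlapped between the groups. Tgfbrap1, a vesicle-tethering protein gene, was among the steadiest members, at 9.76 and 9.97, then 9.93 and 10.7 FPKM.

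Over the 37 tested members the median log2 difference was -0.08, against -0.02 over all genes tested. By role the medians were -0.10 for ligands, -0.20 for receptors, -0.02 for Smads and 0.04 for the others. Members lower in both ascorbate samples numbered 8 (3 ligands, 4 receptors, 0 Smads and 1 other), against 14.4% of all genes tested, and none was higher in both, against 8.65%. Of the 8, Bmp4 and Acvrl1 (ascorbate means 0.545 and 0.84 FPKM) passed the filter only through the PBS samples. Over all 53 members, 14 were lower and 1 higher without overlap, against 14.6% and 7.67% of the 19388 genes. A log2 difference of -1 or lower was seen for 2 members, Bmp6 and Bmp7, and for 1.52% of the genes tested. Rescaling the libraries turned the sign of 7 small differences (Acvr2b, Bmpr1b, Gdf1, Gdf10, Smad2, Smad9 and Tgfb3). It turned none of the 8 without overlap. Rescaled to TPM, 1522 of all genes tested were lower and 1779 higher without overlap, against 1924 and 1157 as deposited, and 10 members were lower. With quantile normalization, 6 members were lower without overlap, against 1571 of the 13372 genes tested, and the member median was -0.01.

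The choroid plexus and meningeal fibroblast sums followed the same order of samples as Bmp6 and Bmp7, but not as Bmp4. For Bmp6, Bmp7 and Tgfbi, as for these sums and for Ttr, both PBS samples were highest, ascorbate sample 1 was next and ascorbate sample 2 was lowest. Bmp4 and Tgfbr3 had ascorbate sample 1 as the lowest, as did the mural and endothelial sums. Once the groups do not overlap, the ascorbate samples can fall in only 2 orders. The share of all genes with each order was not counted. The part of the choroid plexus, meningeal and vascular markers in the differences of these members, and of the antagonists and readouts below, was not tested.

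**Figure D2:**
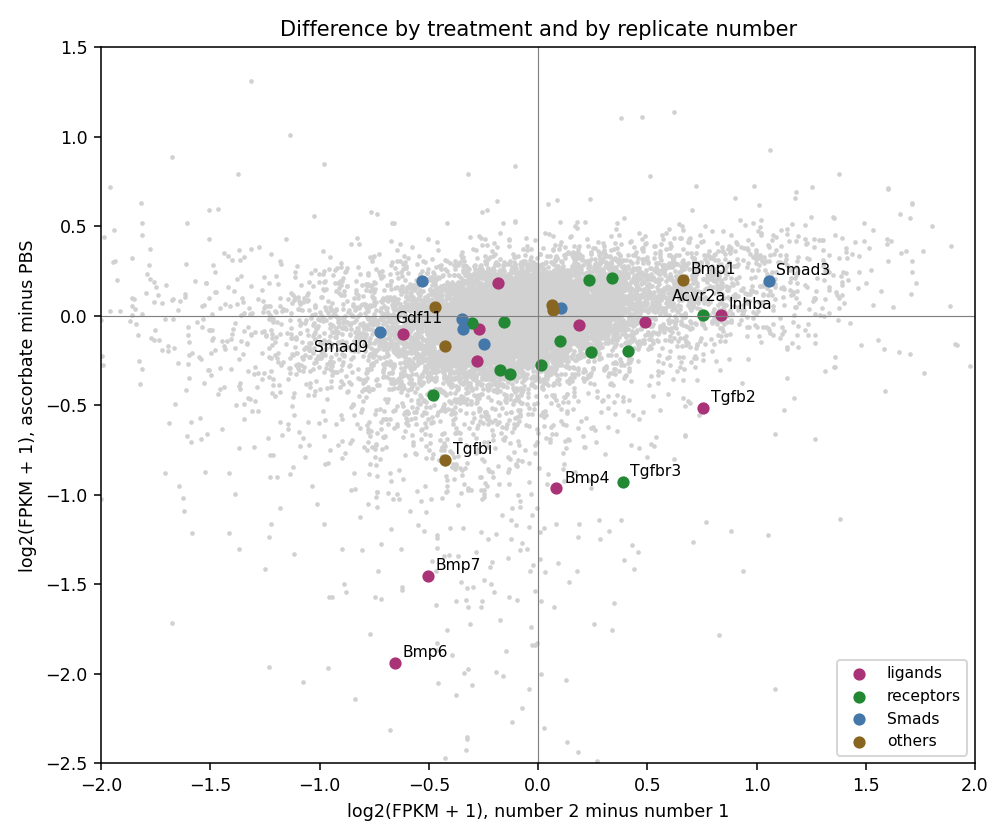
Difference in log2(FPKM + 1) by replicate number (horizontal axis) and by treatment (vertical axis) for 13372 genes in grey and the 37 tested members coloured by role; 119 genes lie outside the plotted range. Bmp6 and Bmp7 lie lowest among members on the treatment axis, while Smad3 lies farthest right.

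Genes that act on the same signals outside the cell were described from a chosen list of 26 secreted antagonists and binding proteins, of which 19 were tested. Of these, 2 were lower in both ascorbate samples and 2 higher, against 14.4% and 8.65% of all genes tested, with a median log2 difference of 0.02, and none passed the adjusted threshold. Sostdc1, a secreted antagonist of BMP and Wnt signals, was at 29.9 and 34.0 FPKM with PBS and 2.87 and 1.11 with ascorbate (log2 difference -3.53, adjusted p = 0.160 by limma). It is also one of the 14 choroid plexus markers. Wfikkn2, which binds GDF8 and GDF11, was at 2.56 and 3.71, then 1.30 and 0.17 FPKM. With an ascorbate mean of 0.735 FPKM, Wfikkn2 passed the filter through the PBS samples. Fstl4, a follistatin-like gene, was higher with ascorbate, at 2.11 and 2.36, then 2.88 and 3.89 FPKM.

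For latency and activation of TGF-beta, 10 of 19 genes were tested, 5 were lower in both ascorbate samples and none higher, against the same 14.4% and 8.65% (median log2 difference -0.29). The list includes the member Bmp1. Mmp2, a matrix metalloproteinase gene, was at 1.95 and 2.30 FPKM with PBS and 1.02 and 0.77 with ascorbate. Its ascorbate mean, 0.895 FPKM, was under the filter, so it entered the test through the PBS samples. Of 9 co-receptors and pseudoreceptors, 6 were tested and 2 were lower without overlap, including Scube3, at 3.08 and 2.78, then 2.26 and 1.05 FPKM, again beside 14.4% of all genes. Of 21 Smad partners and ubiquitin ligases with values, 20 were tested, 3 were lower and 1 higher, near the 14.4% and 8.65% of all genes (median -0.05). A list of 6 other ligands and receptors of the family held 1 tested gene, Lefty1, a nodal inhibitor, at 0.94 and 3.86 FPKM with PBS and 3.10 and 4.72 with ascorbate, which overlap. None of these genes passed the adjusted threshold.

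Of 23 transcripts with values that are often used as readouts of the pathway, 19 were tested (median -0.12). Without overlap, 6 were lower and 2 higher, against 14.4% and 8.65% of all genes. Msx1, a homeobox gene induced by BMP in many tissues, was at 11.2 and 9.51 FPKM with PBS and 2.11 and 1.36 with ascorbate (log2 difference -2.06, adjusted p = 0.168 by limma). Id1, a direct BMP target that encodes an inhibitor of helix-loop-helix factors, was at 11.5 and 8.88, then 8.17 and 5.95 FPKM, and Ccn2, a TGF-beta target, at 4.97 and 8.70, then 1.29 and 3.79. Both were lower in both ascorbate samples with gaps smaller than the spread within a group. The 2 higher readouts were Dlx2 (0.68 and 1.02, then 1.40 and 1.24 FPKM) and Ctps (12.6 and 12.5, then 14.0 and 13.0). Dlx2, with a PBS mean of 0.85 FPKM, passed the filter through the ascorbate samples. Id3, Id4 and Hey1 overlapped between the groups, and Id2 was lower in both ascorbate samples. That list also holds Col1a1, one of the meningeal fibroblast markers, and the members Smad6, Smad7 and Tgfbi.

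**Figure D3:**
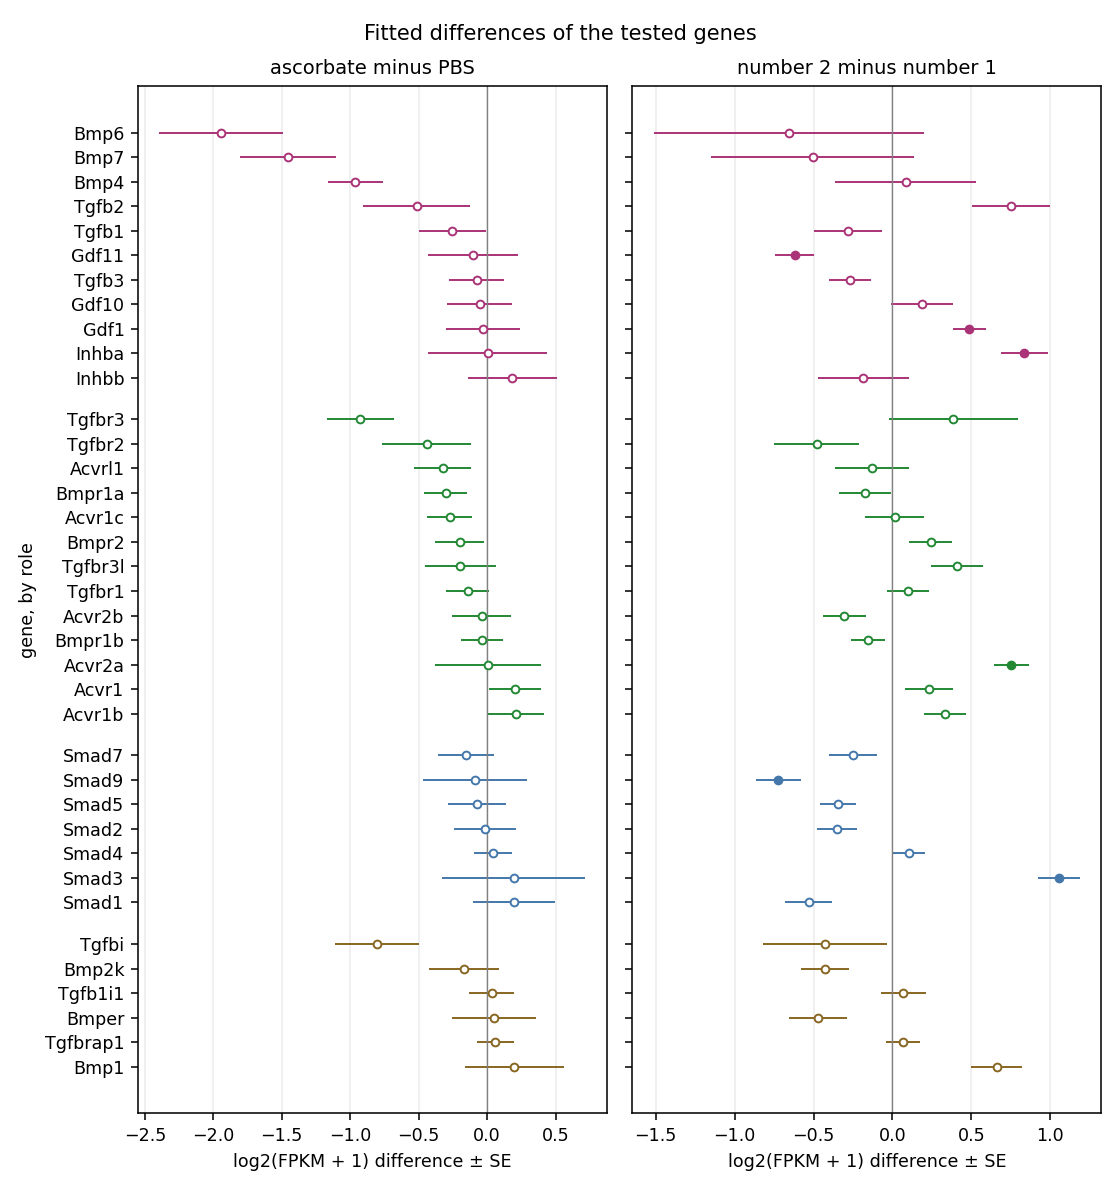
Log2 differences of the 37 tested members with their standard errors, for ascorbate minus PBS and for number 2 minus number 1; filled symbols mark an adjusted p under 0.05. No filled symbol appears for treatment, and 6 appear for number.

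Comparison of replicate number 2 with number 1: Smad3, Acvr2a, Inhba and Gdf1 were higher in the samples numbered 2, and Smad9 and Gdf11 were lower. These 6 of 37 members passed an adjusted p of 0.05 by limma, against 1602 of 13372 genes (12%). Higher calls were 4 members against 673 genes (5.03%), and lower calls 2 members against 929 genes (6.95%). The labels give the number no meaning, so it is a name shared by samples of both treatments and not a condition. Both comparisons use the same 4 libraries. Rescaled to TPM, the median over all genes moved from -0.08 to 0.02 log2, and the calls over all genes became 661 lower and 749 higher. Of the members, only the small differences of Acvrl1 and Inhbb turned sign under a rescaling.

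Smad3 (chr9:63646766-63757994), which carries TGF-beta and activin signals, was at 6.94 and 8.46 FPKM in the PBS and ascorbate samples numbered 1 and at 16.2 and 17.9 in those numbered 2. The means were 7.70 ± 1.08 and 17.0 ± 1.19 FPKM (SD, n = 2 each), a 2.21-fold rise (log2 difference 1.06, SE 0.133, adjusted p = 0.0112 by limma). The groups do not overlap, and the PBS and ascorbate samples of a number lay close together.

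Upstream of Smad3, the type II activin receptor gene Acvr2a (chr2:48814109-48903264) stood at 12.8 and 11.8 FPKM in number 1 and 20.5 and 22.3 in number 2, a 1.74-fold rise (log2 difference 0.75, SE 0.109, adjusted p = 0.0158 by limma). The activin A subunit gene Inhba (chr13:16004256-16031609) stood at 1.60 and 1.71, then 3.82 and 3.65 FPKM, a 2.26-fold rise (log2 difference 0.84, SE 0.149, adjusted p = 0.0255 by limma). Other genes of the activin branch went the other way without passing the test. Acvr2b, the other type II activin receptor gene, was at 4.17 and 3.87, then 3.06 and 3.07 FPKM, and Smad2 at 5.20 and 5.39, then 4.07 and 3.81. Exons of Acvr2a share 446 bases with Orc4 on the opposite strand. Gdf1 stood at 17.3 and 15.9, then 23.3 and 24.1 FPKM, with the limit of its overlap with Cers1.

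Smad9 (chr3:54755455-54801662), one of the BMP-regulated Smads, was the lower counterpart, at 4.61 and 4.19 FPKM in number 1 and 2.35 and 2.19 in number 2 (log2 difference -0.72, SE 0.142, adjusted p = 0.0322 by limma). Gdf11 (chr10:128880524-128891718), a ligand close to myostatin, was at 7.36 and 7.04, then 4.62 and 4.06 FPKM, a 1.66-fold difference (log2 difference -0.62, SE 0.125, adjusted p = 0.0345 by limma). Smad1 and Smad5, the other BMP-regulated Smads, were also lower in both samples numbered 2 but did not pass: Smad1 was at 7.80 and 10.2, then 5.75 and 5.97 FPKM, and Smad5 at 11.1 and 11.1, then 9.03 and 8.05. Bmp1 was higher in number 2, at 18.8 and 18.3, then 25.6 and 34.9 FPKM, with an adjusted p of 0.0549 by limma. Tgfb2 was also higher in both samples numbered 2 (log2 difference 0.75, adjusted p = 0.111 by limma).

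Of the 7 tested Smads, 5 were lower and 2 higher in both samples numbered 2, against 38.5% and 22.6% of genes tested. None of the 7 separated the treatments, against 14.4% of genes tested lower and 8.65% higher. Smad6, not tested, separated the treatments and overlapped between the numbers. Over all 37 tested members, 13 were lower and 12 higher by number without overlap, against the same 38.5% and 22.6%. At an unadjusted p under 0.05 stood 15 members, against 29.9% of genes. The median log2 difference was -0.13 over members and -0.08 over all genes, with -0.34 for Smads, -0.18 for ligands and 0.10 for receptors. The treatment difference was the larger in size for 9 of 37 members, against 30.2% of all genes tested.

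The number of calls by number depended on the libraries included, while the sizes of the differences moved little. Leaving out 1 sample gave log2 differences of 0.93 to 1.18 for Smad3, 0.70 to 0.81 for Acvr2a, 0.81 to 0.87 for Inhba, 0.43 to 0.55 for Gdf1, -0.78 to -0.67 for Smad9 and -0.70 to -0.55 for Gdf11. These fits have 1 residual degree of freedom. Without PBS sample 1 or without ascorbate sample 1, none of the 37 members passed, without ascorbate sample 2 only Smad3 did, and without PBS sample 2 there were 6, of which Smad3, Acvr2a and Gdf11 were among those above. Over all genes the counts were then 69, 0, 469 and 1731 in that order of omission. With no filter on low values, only Smad3 and Acvr2a passed. Gdf11 did not pass when rescaled to TPM (adjusted p = 0.0531 by limma) or with quantile normalization (0.051), nor Smad9 with quantile normalization (0.0653), nor Gdf1 without the variance trend (0.0608). Astrocyte sums were 1116 and 1129 FPKM in number 1 and 1037 and 1091 in number 2. Of 7 astrocyte genes, 2 were called lower in number 2 (Aqp4 and Aldh1l1) and 1 higher (Slc1a2), against 6.95% and 5.03% of all genes. The hippocampal, neocortical, thalamic, oligodendrocyte, ependymal and astrocyte sums moved with the number in the same libraries. Their part in these differences was not tested.

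**Figure D4:**
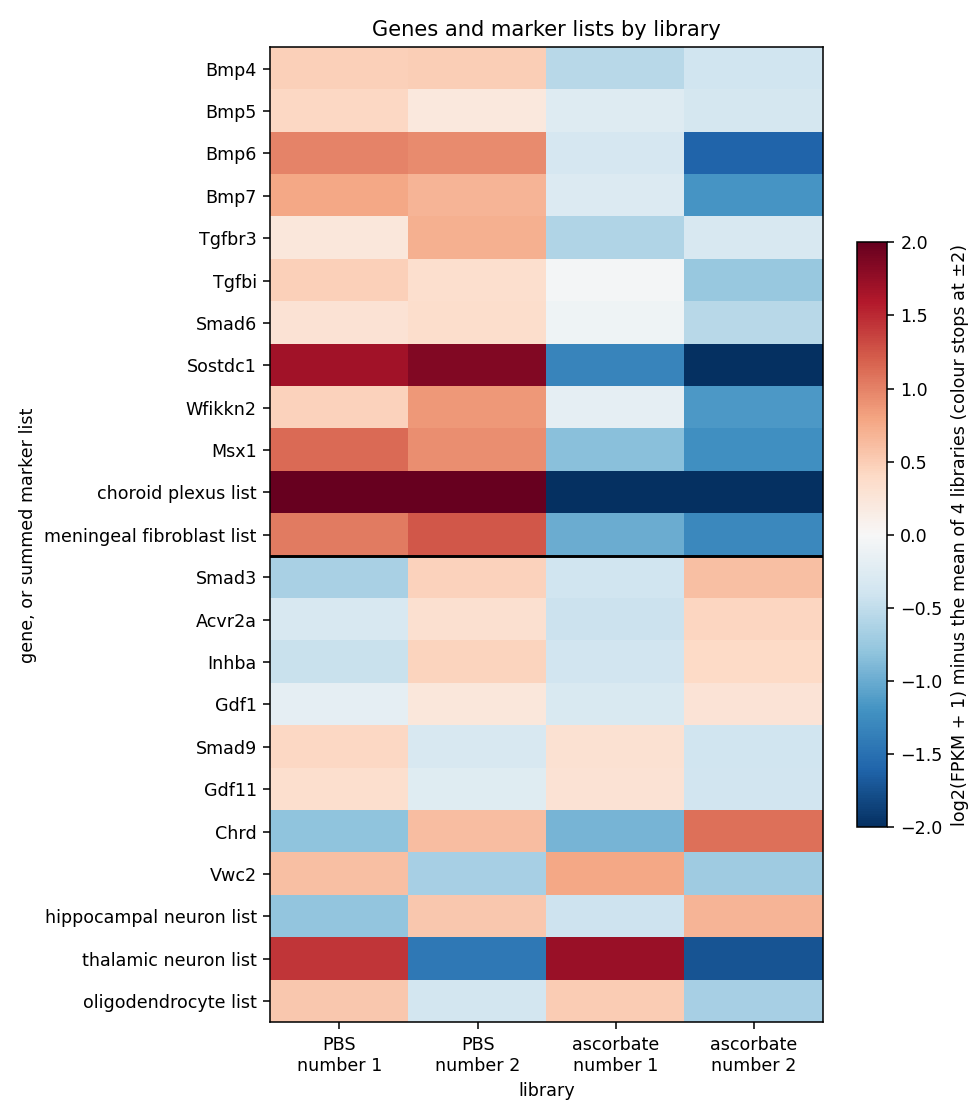
Log2(FPKM + 1) minus the mean of the 4 libraries for named genes and for the summed marker lists, with colour stopping at ±2. The upper block is higher in both PBS libraries; in the lower block the libraries separate by number.

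Pathway genes outside the family symbols were called by number as well. Of the 19 antagonists tested, 2 passed, against 12% of all genes tested, so the count is near the background. Chrd, the BMP antagonist chordin, rose from 12.4 and 11.2 FPKM in number 1 to 34.7 and 49.2 in number 2 (log2 difference 1.73, adjusted p = 0.00864 by limma). Vwc2, a chordin-like antagonist of brain, fell from 4.11 and 4.77 to 1.12 and 1.06 FPKM (log2 difference -1.38, adjusted p = 0.0102 by limma). These 2 antagonist genes moved in opposite directions.

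Of the 20 Smad partners and ubiquitin ligases tested, 4 passed, and all 4 were higher in number 2 (Zeb2, Skil, Nedd4l and Ski), against 12% of all genes called and 5.03% called higher. Zeb2, a repressor first described as a Smad-binding protein, rose from 16.3 and 14.8 to 32.1 and 30.1 FPKM (adjusted p = 0.00989 by limma). Skil, a repressor of Smad-driven transcription that is itself a TGF-beta target, rose from 11.1 and 9.81 to 19.1 and 20.1 FPKM (adjusted p = 0.0128 by limma).

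Of the 19 readout transcripts tested, Skil and Klf10 rose and Id4 fell, 3 calls against 12% of all genes. Skil is counted in both lists. Klf10, an early TGF-beta response gene, went from 3.18 and 3.53 FPKM to 7.13 and 6.87 (adjusted p = 0.0155 by limma). Id4 went from 35.3 and 38.3 to 25.6 and 25.9 FPKM (adjusted p = 0.0378 by limma). Among 10 latency and activation genes, Ltbp4, which tethers latent TGF-beta to matrix, rose from 7.34 and 7.57 to 11.95 and 13.4 FPKM. Among 6 co-receptors, Rgma, a BMP co-receptor and axon guidance gene, fell from 11.3 and 15.9 to 8.03 and 5.93 FPKM, with an adjusted p of 0.0499 by limma.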

How the data were processed

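Poly(A)-selected RNA from 4 hippocampus samples was sequenced. The deposited values are FPKM per gene, per the file headers. HISAT2, Bowtie2, RSEM, DESeq2 and build GRCm38 are named, per the submitters' processing notes. Which tool made the FPKM, the annotation and the strand setting are not given in the sources used here. Read totals are not in these files, so depth is unknown and no counting interval is given. FPKM sums ran from 348133 to 391142. Of 22173 genes listed, 2785 had empty cells.

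The 13372 genes averaging 1 FPKM or more over the samples were fitted on log2(FPKM + 1) with limma 3.58.1 in R 4.3.3, with a mean-variance trend. P-values were Benjamini-Hochberg adjusted over all of them, with a threshold of 0.05. Treatment and replicate number were fitted separately on all 4 samples, with 2 residual degrees of freedom each. A fold is a ratio of mean FPKM, and log2 differences understate changes of low genes. The fit was tested on simulated data.

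Members with values given were the 10 with the smallest unadjusted p in each comparison and the 3 most abundant per role, with up to 3 genes per other list. Bmp5, Gdf15, Smad6, some overlapping members and some readout and marker genes, among them Id1, were added after their values were seen. The members and all lists were chosen with earlier results of these data known. Members were compared with GENCODE M21 exons for overlap, and near-identical copies were searched with BLAST 2.17.0 (95% identity over 200 bases). Promoters and coordinates came from RefSeq (GRCm38.p6). Alternatives changed the pseudocount, filter, scaling, variance model, replicate block and samples.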

Additional observations from a re-analysis of the deposited data

How the results depend on the processing

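No member passed the threshold for ascorbate in any setting other than the replicate block. Over all genes, 1 passed with quantile normalization and 485 (3.63%) with the replicate block, which adds the number as a factor and leaves 1 residual degree of freedom. With that block 5 members passed: Bmp4 (adjusted p = 0.0117 by limma), Bmp6 (1.9e-05), Bmp7 (0.000145), Tgfbi (0.0351) and Tgfbr3 (0.00149), all lower. By number, the block gave 3708 genes and 11 members. Same-numbered samples deviated together from their group means (correlation 0.77 over 13372 genes, which are not independent). The labels give the number no meaning, and there are only 2 pairs. Without the filter, 14 members were lower and 1 higher with ascorbate, against 2834 and 1488 of 18516 genes. By number, 586 genes and 2 members then passed. With a 5 FPKM filter, 2 members were lower with ascorbate and 4 lower by number, since fewer were tested. Of the 9924 genes then tested, 1195 and 3839 were lower. Leaving out 1 sample, where the lone sample is assumed to vary like the others, gave 14 to 19 members lower and 2 to 8 higher with ascorbate. Over the 13372 genes tested, the same fits gave 3061 to 6195 lower and 2968 to 4369 higher, since a lone sample overlaps less often. By number it gave 0 to 1731 genes, 0 to 6 members past the threshold, 13 to 20 lower and 12 to 16 higher. Log2 differences with ascorbate that turned sign then were Wwp1 (-0.598 to 0.019), Bambi (-0.355 to 0.112) and Lefty1 (-0.005 to 1.32). The cause was not tested. Of the values of single named genes under the alternatives, 573 kept direction and call, 68 lost a call, 20 gained one and 3 turned sign. FPKM without read totals limits low values most: 16 members under the filter carry no test.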
